A study of Mus musculus with 21 samples.

Results

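Histone variants are versions of the core and linker histones that are coded by separate genes and are placed into nucleosomes at particular sites or times. The genes described here are 10 such variants, chosen by symbol from the 37620 genes of an RNA-seq table of germ cells: H3f3a and H3f3b, which code for H3.3, the centromeric H3 gene Cenpa, the H2A.Z genes H2afz and H2afv, the macroH2A genes H2afy and H2afy2, the H2A.X gene H2afx, and the testis genes Hist1h1t and Hist1h2ba. All 10 were found in the table. The study asked how chromatin shapes the use of PRDM9 binding sites as recombination hotspots, and RNA-seq was done to relate hotspots to gene expression. Germ cells were enriched by collagenase and trypsin digestion from C57BL/6J males at 12 days post-partum, and the libraries are labelled spermatocytes. The RNA-seq comprised 12 libraries, 3 for each of the sample numbers 186wt, 343wt, 444wt and 456wt, no treatment or mutant was sequenced for RNA, and the other assays of the series were not analysed here. The labels do not say whether a number is an animal or a pool, or whether its 3 libraries came from separate RNA. The study's methods describe as many replicates of germ cells as there are sample numbers, so the libraries of a number may be repeats of the same RNA, and limma p-values measure only the spread between these libraries, which may be technical.

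H3.3 is laid down outside DNA replication, at transcribed genes and, in male meiosis, over the silenced sex chromosomes. H2A.X is phosphorylated at DNA double-strand breaks, H2A.Z sits beside transcription start sites, macroH2A is enriched on silenced chromatin, and CENP-A marks the centromere. H1t and TH2B, the products of Hist1h1t and Hist1h2ba, are made in male germ cells during meiosis, and H1t is known as a marker of mid-pachytene and later spermatocytes.

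Among the genes, 3 pairs are paralogs, and coding sequences are shown because the comparisons below need reads to be assigned to 1 gene of a pair. These are the first 90 coding bases, 5′ to 3′ from the annotated transcripts of NCBI build 37, with bases that differ within a pair in capitals. H3f3b lies at chr11:115883226-115889276 on the minus strand and H3f3a at chr1:182730963-182744074 on the minus strand. Their coding sequences have the same translation and are both 411 bases long, and 316 bases (76.9%) were identical.
H3f3b: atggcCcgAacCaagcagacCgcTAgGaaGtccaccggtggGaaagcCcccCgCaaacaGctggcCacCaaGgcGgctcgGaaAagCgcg
H3f3a: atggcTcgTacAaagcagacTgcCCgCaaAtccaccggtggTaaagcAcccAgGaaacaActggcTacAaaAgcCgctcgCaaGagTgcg
H2afz: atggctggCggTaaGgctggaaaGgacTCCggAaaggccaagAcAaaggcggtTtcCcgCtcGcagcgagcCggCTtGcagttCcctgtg
H2afv: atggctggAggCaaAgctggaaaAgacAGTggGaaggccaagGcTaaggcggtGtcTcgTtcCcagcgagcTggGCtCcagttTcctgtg
The longest identical coding run was 23 bases within the H3.3 pair, 14 bases within the H2A.Z pair and 16 bases within the macroH2A pair. The reads were 100 bases long, and no stretch of 100 bases was shared between any of the 10 genes. Other genes and pseudogenes did share such stretches. They took 38.2% of the distinct 100-base stretches of H2afz, shared with 3 genes, 20.8% of those of H3f3a, shared with 12 genes, and 27.6% of those of Hist1h2ba, shared with 11 genes that include Hist1h2bj and Hist1h2bc. The share was 6.57% for H2afy2, 1.73% for H3f3b, 1.43% for H2afx, and 0% for H2afv, H2afy, Cenpa and Hist1h1t, so that the levels of H2afz, H3f3a and Hist1h2ba rest more than the others on how the authors' program divided reads between copies.

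Replication-dependent histone mRNAs end in a stem-loop in place of a poly(A) tail, and 3 of the 10 genes carry that element after the stop codon. The motif searched was GG, 2 bases of any kind, CTTTT, any base, AG, any base and GCC, 16 bases in all on the coding strand, from the stop codon to 200 bases beyond the end of the annotated transcript. The matches are shown with 5 bases on each side and the stem-loop in capitals, because Hist1h1t and Hist1h2ba, the least abundant of the 10 genes, both carry it.
Hist1h1t: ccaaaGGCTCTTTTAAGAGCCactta
Hist1h2ba: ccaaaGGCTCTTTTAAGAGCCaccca
H2afx: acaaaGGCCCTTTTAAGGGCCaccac
In NCBI build 37 the match lies at chr13:23788394-23788409 on the plus strand for Hist1h1t, at chr13:24025599-24025614 on the minus strand for Hist1h2ba and at chr9:44143323-44143338 on the plus strand for H2afx. It begins 30, 28 and 47 bases after the stop codon, respectively. The annotated transcript of H2afx runs on for 816 bases beyond its match, whereas that of Hist1h2ba ends before it. Of the 65 replication-dependent histone genes of the table, 54 (83.1%) had the motif, and of all 22694 protein-coding genes 58 (0.256%) did. The 65 were taken by symbol and include the linker genes Hist1h1a to Hist1h1e and also Hist1h2aa, which codes for the partner of TH2B.

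The level of each gene was read from the deposited FPKM, which scales fragment numbers to transcript length and to the size of the library and so lets levels of different genes be compared. The libraries held an estimated 12.9 to 17.8 M fragments (M for mega). All 10 genes averaged 0.1 FPKM or more across the sample numbers, as did 55.3% of all genes. The top quartile of genes at or above that level began at 21.1 FPKM, and it held 7 of the 10 histone variants and 13.8% of all genes in the table. H2afy2, Hist1h2ba and Hist1h1t were below that bound. The median of the 10 genes was 67.95 FPKM against 5.005 FPKM for all genes with at least 0.1 FPKM. Together the 10 genes held 0.317% of the summed FPKM.

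**Figure D1:**
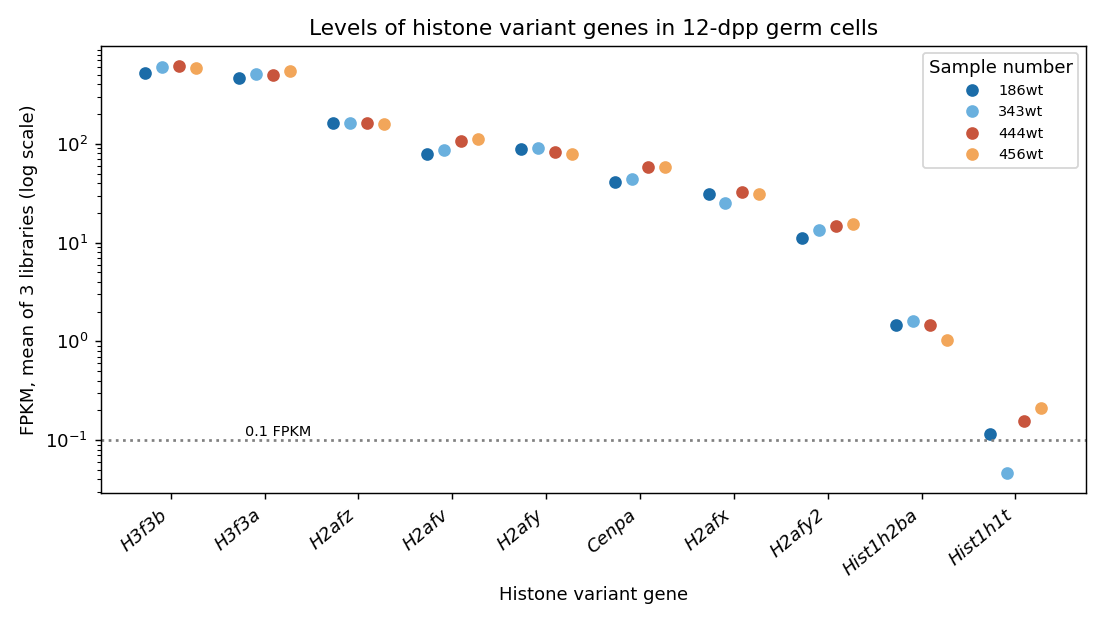
FPKM (log scale) of the 10 histone variant genes in order of their mean, with 1 point for each sample number (mean of 3 libraries) and a dotted line at 0.1 FPKM. The H3.3 genes lie highest, at 464 to 611 FPKM, and Hist1h1t lies lowest, with 343wt below the line at 0.0467 FPKM.

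The cells held more than spermatocytes by their markers. Meiotic prophase genes were present, and the 12 in the table, among them the synaptonemal complex gene Sycp3, had a median of 43.85 FPKM. Round spermatid genes were close to 0, with Prm2 listed at 0 in every library and a sum of 5.48 to 8.02 FPKM over 10 genes. Genes of mid-pachytene and later cells summed to 146, 99.6, 119 and 164 FPKM in 186wt, 343wt, 444wt and 456wt. Most of each sum came from Ybx2 and Hspa2, which averaged 61.9 and 36.8 FPKM. The median of the 10 genes had another order, with 4.12, 3.99, 1.27 and 7.165 FPKM. Pgk2 and Acrv1 were below 0.1 FPKM. Somatic cells of the testis were also present: the 9 Sertoli genes, Clu and Aard among them, summed to 4085, 4223, 2367 and 2535 FPKM in 186wt, 343wt, 444wt and 456wt, and the 5 peritubular myoid genes, which include Acta2, to 533, 253, 670 and 1112 FPKM. Leydig genes summed to 16.1 to 110.5 FPKM, macrophage genes to 7.60 to 32.7 FPKM and endothelial genes to 13.3 to 33.5 FPKM. In such mixed cells, fewer cells of a type and less RNA per cell cannot be told apart.

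H3.3 was coded by the most abundant transcripts of the 10. H3f3b had 524, 605, 611 and 585 FPKM in 186wt, 343wt, 444wt and 456wt, a mean of 581 ± 39.5 (SD, n = 4 sample numbers). H3f3a had 464, 513, 496 and 545 FPKM, a mean of 505 ± 33.5 (SD, n = 4). They were number 60 and number 77 among all genes by level. Their sum was 1086 ± 65.5 FPKM (SD, n = 4), which was 71.2% of the summed FPKM of the 10 genes. Both were lowest in 186wt. H3f3b was highest in 444wt and H3f3a in 456wt, and H3f3b was above H3f3a in each sample number, by a ratio of 1.13, 1.18, 1.23 and 1.07. The ratio was 0.20 ± 0.084 on the log2 scale (SD, n = 4), and an exact two-sided permutation test that flips signs over the 4 sample numbers gave p = 0.125, the smallest it allows. The ranges of the genes overlapped across sample numbers, since H3f3a in 456wt was above H3f3b in 186wt.

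Whether levels differed between the 4 sample numbers was tested with limma on log2(FPKM + 0.1) over all 20795 genes that averaged 0.1 FPKM or more. At an adjusted p below 0.05, 7 of the 10 histone variants differed, and 58.2% of all genes tested did. Among genes at 1 FPKM or more the count was 7 of 9, and 77.6% of all such genes differed. The share among the histone variants is near both backgrounds. The 7 were H3f3b (adjusted p = 2.55e-08), H2afv (4.45e-07), Cenpa (2.99e-06), H3f3a (4.52e-06), H2afx (0.000204), H2afy2 (0.000495) and H2afy (0.000829). H2afz (0.430), Hist1h2ba (0.365) and Hist1h1t (0.559) did not pass. By pairs of sample numbers, 5 of the 10 genes differed between 343wt and 186wt (20.4% of all genes), 6 between 444wt and 186wt (42.4%), 6 between 456wt and 186wt (41.4%), 5 between 444wt and 343wt (47.9%), 6 between 456wt and 343wt (41.7%) and 2 between 456wt and 444wt (28.2%). The pairs share samples and are not independent. The differences were small: the range between the highest and the lowest sample number was at most 0.49 on the log2 scale for the 8 genes above 10 FPKM.

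**Figure D2:**
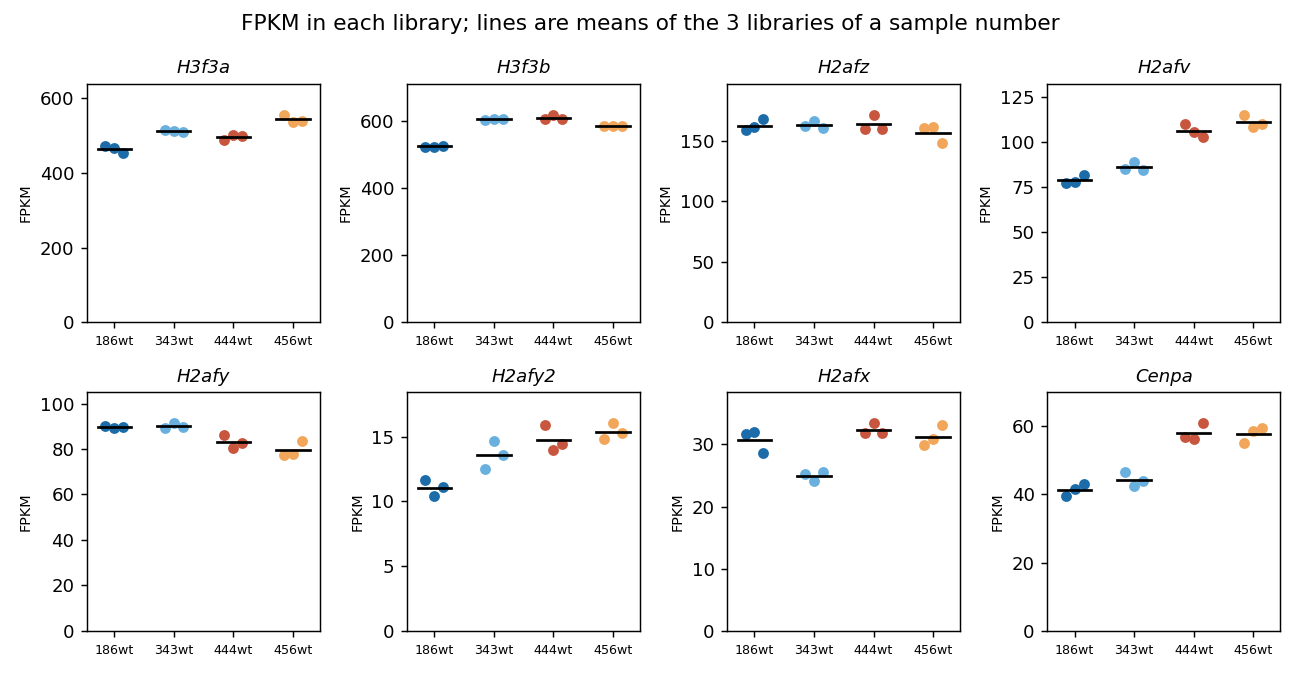
FPKM of the 8 more abundant genes in each of the 12 libraries, by sample number, with a line at the mean of the 3 libraries and each axis starting at 0. In 444wt and 456wt every library of Cenpa and of H2afv lies above every library of 186wt and 343wt, H2afx is lowest in 343wt, and the H2afz libraries overlap across all sample numbers.

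Genes that place H3.3 or handle H3 and H4 were detected in the same libraries. Each of the 12 chaperone genes chosen for this had at least 0.1 FPKM, with a median of 28.8 FPKM, and 9 were in the top quartile. Nasp, a chaperone of H3 and H4, had 146.5 ± 21.7 FPKM, and Dek had 83.6 ± 6.73 FPKM (SD, n = 4). Between sample numbers 11 of the 12 differed, against 77.6% of genes at 1 FPKM or more, and the largest range, 0.51 on the log2 scale, was that of Chaf1a, the large subunit of the replication-coupled chaperone CAF-1. Hira, the replication-independent H3.3 chaperone, had 27.7 ± 1.65 FPKM and did not pass (adjusted p = 0.167).

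Cenpa, at chr5:30969150-30977200 on the plus strand of NCBI build 37, codes for the H3 variant that specifies centromeres. Its level was 41.3, 44.2, 57.9 and 57.7 FPKM in 186wt, 343wt, 444wt and 456wt, with a mean of 50.3 ± 8.74 (SD, n = 4). The libraries formed a lower group, 39.6 to 46.3 FPKM in 186wt and 343wt, and a higher one, 55.1 to 60.7 FPKM in 444wt and 456wt, that did not overlap. Cenpa was higher in 444wt than in 186wt by 0.49 ± 0.046 on the log2 scale (SE, adjusted p = 4.67e-06) and higher than in 343wt by 0.39 ± 0.046 (adjusted p = 2.69e-05). It did not pass between 343wt and 186wt (0.10 ± 0.046, adjusted p = 0.165) or between 456wt and 444wt (adjusted p = 0.962).

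Of 10 genes of CENP-A loading and the centromere, 9 were in the table, and all 9 differed between sample numbers, beside 77.6% of genes at 1 FPKM or more. Hjurp, the chaperone that deposits CENP-A, had 85.0, 79.8, 115 and 100.0 FPKM. As with Cenpa, it was lower in 186wt and 343wt than in 444wt and 456wt. The most abundant genes of the group were Rbbp7 (210.5 ± 27.9 FPKM) and Rbbp4 (204 ± 8.77 FPKM, SD, n = 4), histone-binding proteins that also belong to other complexes. Cenpb, which binds a centromeric DNA repeat, was lower in 444wt and 456wt, at 34.1 and 33.3 FPKM, than in 186wt and 343wt, at 41.5 and 45.3 FPKM (adjusted p = 1.51e-06 between the 4 sample numbers).

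H2A.Z came from both its genes, at different levels. H2afz, at chr3:137527451-137529886 on the plus strand, had 163, 163, 164 and 157 FPKM, with a mean of 162 ± 3.18 (SD, n = 4). H2afv, at chr11:6327229-6344446 on the minus strand, had 79.0, 86.3, 106.4 and 111 FPKM, with a mean of 95.8 ± 15.5 (SD, n = 4). H2afz was thus the steadiest of the 10 genes between sample numbers, with a coefficient of variation of 1.96%, whereas that of H2afv was 16.2%. H2afv was higher in 456wt than in 186wt by 0.49 ± 0.034 on the log2 scale (SE, adjusted p = 4.00e-07), and also differed between 343wt and 186wt (0.13 ± 0.034, adjusted p = 0.0221). H2afz had a range of 0.06 on the log2 scale, and its call depended on the scaling: when libraries were rescaled by the median ratio of genes at 1 FPKM or more, it passed (adjusted p = 0.0222).

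The ratio of H2afz to H2afv was 2.06, 1.89, 1.54 and 1.41 in 186wt, 343wt, 444wt and 456wt. H2afz was the higher gene in all 4 sample numbers, by 0.77 ± 0.25 on the log2 scale (SD, n = 4, exact permutation p = 0.125, the smallest possible). Among 12 genes of H2A.Z exchange, which gave 13 rows because Srcap was listed under 2 identifiers, 12 rows differed between sample numbers (77.6% of genes at 1 FPKM or more did) and the median level was 30.4 FPKM. Anp32e, a chaperone that removes H2A.Z, was highest at 84.5 ± 8.43 FPKM (SD, n = 4), followed by the helicase gene Ruvbl1 at 54.7 ± 4.39 FPKM. Srcap, the catalytic subunit of a complex that inserts H2A.Z, had the largest range, 0.43 on the log2 scale, between 24.3 FPKM (343wt) and 32.9 FPKM (444wt).

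**Figure D3:**
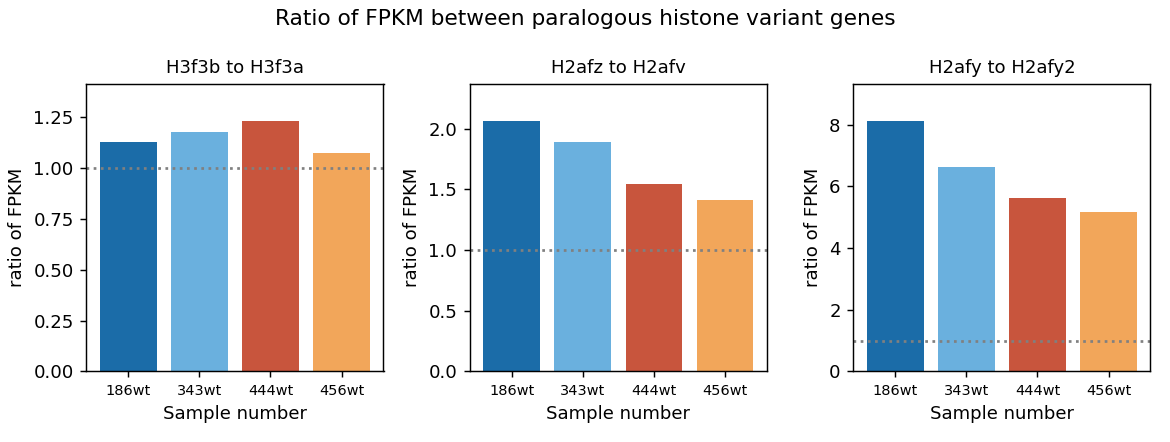
Ratio of FPKM between the genes of each paralog pair in the 4 sample numbers (bars, from means of 3 libraries), with a dotted line at equal levels. All bars lie above 1: from 1.07 to 1.23 for H3f3b to H3f3a, from 1.41 to 2.06 for H2afz to H2afv and from 5.18 to 8.11 for H2afy to H2afy2.

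MacroH2A joins an H2A-like part to a large globular domain. H2afy, the macroH2A1 gene at chr13:56174980-56237722 on the minus strand, had 89.7, 90.1, 83.1 and 79.6 FPKM, with a mean of 85.6 ± 5.16 (SD, n = 4). H2afy2, the macroH2A2 gene at chr10:61201391-61246895 on the minus strand, had 11.1, 13.6, 14.7 and 15.4 FPKM, with a mean of 13.7 ± 1.90 (SD, n = 4). The paralogs differed between sample numbers in opposite directions. H2afy was lower in 456wt than in 186wt by 0.17 ± 0.031 on the log2 scale (SE, log2 difference of -0.17, adjusted p = 0.00083), while H2afy2 was higher there by 0.47 ± 0.070 (adjusted p = 0.000195). Without 186wt, H2afy2 no longer passed (adjusted p = 0.121). The ratio of H2afy to H2afy2 was 8.11, 6.64, 5.64 and 5.18, or 2.65 ± 0.28 on the log2 scale (SD, n = 4, exact permutation p = 0.125, the smallest possible).

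H2afx is a gene of 1 exon at chr9:44142798-44144154 on the plus strand. Its level was 30.8, 25.0, 32.3 and 31.3 FPKM, with a mean of 29.8 ± 3.32 (SD, n = 4). The 3 libraries of 343wt, at 24.1 to 25.6 FPKM, were below all 9 others, which ranged from 28.6 to 33.4 FPKM. H2afx was lower in 343wt than in 444wt by 0.37 ± 0.050 on the log2 scale (SE, adjusted p = 7.91e-05). The difference between sample numbers rested on 343wt, since without it H2afx did not pass (adjusted p = 0.495). Among 12 genes linked to H2A.X phosphorylation, 10 differed between sample numbers (77.6% of genes at 1 FPKM or more did), with a median level of 28.4 FPKM. Trp53bp1, which is recruited to broken DNA, was highest (62.3 ± 6.30 FPKM), followed by Baz1b, a kinase of H2A.X (45.2 ± 6.06 FPKM, SD, n = 4). Mdc1, which binds phosphorylated H2A.X, had the largest range, 0.71 on the log2 scale, with 34.0, 24.2, 39.7 and 26.9 FPKM, and it too was lowest in 343wt.

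Markers of cell state and cell type also varied between the sample numbers. S phase genes summed to 442, 454, 616 and 574 FPKM in 186wt, 343wt, 444wt and 456wt, genes of G2 and M phase to 395, 380, 540 and 482 FPKM, and spermatogonial genes to 732, 745, 1025 and 895 FPKM. These 3 sums were lower in 186wt and 343wt than in 444wt and 456wt, as were Cenpa, H2afv and H2afy2. H2afy2 in 343wt was between its levels in 186wt and 444wt. It passed between 343wt and 186wt (adjusted p = 0.0121), but not between 444wt and 343wt (adjusted p = 0.185) or between 456wt and 343wt (adjusted p = 0.0596). The Sertoli sums were higher in 186wt and 343wt, as was H2afy. Meiotic prophase genes summed to 518, 450, 729 and 527 FPKM and were lowest in 343wt, as was H2afx. That low point was not particular to the meiotic list. The sums of G2 and M phase genes, of mid-pachytene and later genes (99.6 FPKM) and of peritubular myoid genes (253 FPKM) were also lowest in 343wt. Within the meiotic list Stra8 and Tex11 were lowest in 186wt and Smc1b in 456wt, and the others in 343wt. All 10 S phase genes, 8 of 8 spermatogonial genes, 9 of 10 G2 and M phase genes, 9 of 9 Sertoli genes and 12 of 12 meiotic prophase genes differed between sample numbers, where 77.6% of all genes at 1 FPKM or more did. The part of these cells in the levels of the histone variants was not tested.

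**Figure D4:**
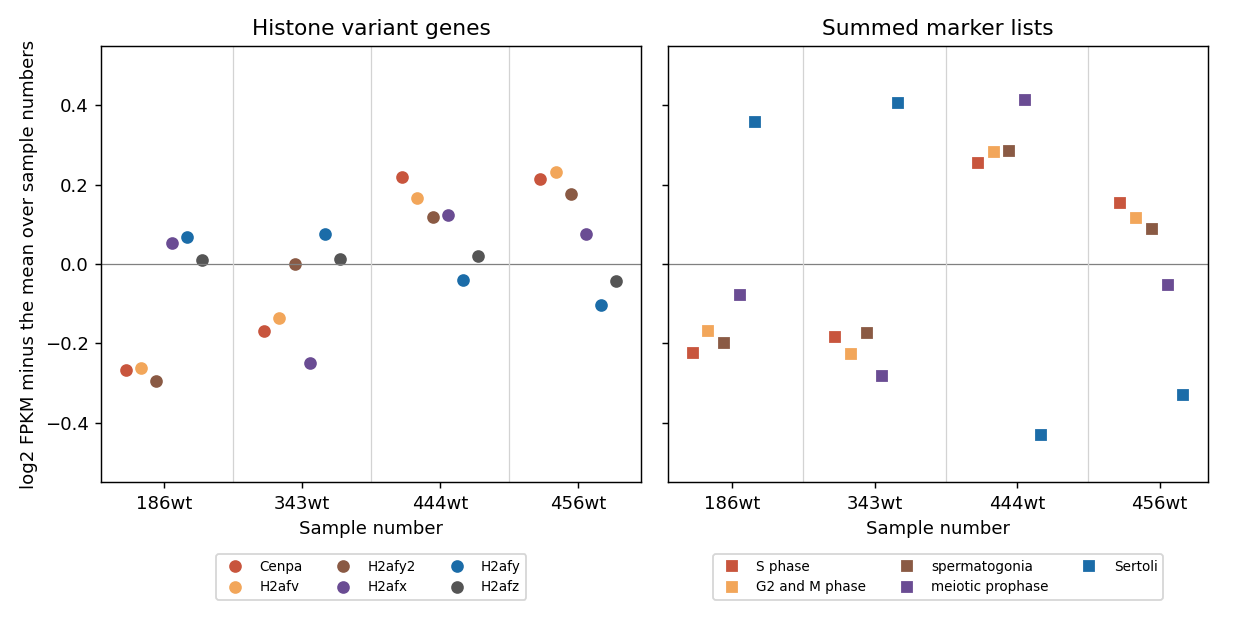
Levels of 6 histone variant genes (left) and summed levels of 5 marker lists (right) in each sample number, as log2 FPKM minus the mean over the 4 sample numbers. Cenpa, H2afv and the sums of S phase, G2 and M phase and spermatogonial genes lie below 0 in 186wt and 343wt and above 0 in 444wt and 456wt, and H2afy and the Sertoli sum lie on the opposite sides.

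The promoters of Cenpa and H2afv are shown because in both genes 444wt and 456wt were each above 186wt and 343wt in the pairwise tests. They cover 250 bases before to 50 bases after the start in RefSeq (GRCm38.p6), at chr5:30666636-30666935 on the plus strand for Cenpa and at chr11:6444394-6444693 on the minus strand for H2afv. CCAAT and its reverse complement ATTGG are in capitals.
Cenpa: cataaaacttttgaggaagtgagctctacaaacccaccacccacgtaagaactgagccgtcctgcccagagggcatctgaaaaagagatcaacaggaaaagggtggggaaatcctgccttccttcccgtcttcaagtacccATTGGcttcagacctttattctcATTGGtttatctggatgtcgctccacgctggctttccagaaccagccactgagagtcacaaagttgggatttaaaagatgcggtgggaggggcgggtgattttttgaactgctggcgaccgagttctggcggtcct
H2afv: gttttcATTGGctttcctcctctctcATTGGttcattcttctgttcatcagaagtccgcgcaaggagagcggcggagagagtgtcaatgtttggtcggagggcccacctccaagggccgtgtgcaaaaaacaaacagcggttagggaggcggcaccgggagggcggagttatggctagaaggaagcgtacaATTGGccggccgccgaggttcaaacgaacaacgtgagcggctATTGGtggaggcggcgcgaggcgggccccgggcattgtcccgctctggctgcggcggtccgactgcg
CCAAT on either strand occurred 2 times in the Cenpa promoter and 4 times in that of H2afv. It was found in 8 of the 9 genes with a RefSeq promoter, among them H3f3b and Hist1h2ba with 4 each, and H2afy had none. For the background, promoters of that length were counted once per distinct sequence and were not taken from every chromosome. Of these 32544 promoters, 37.4% held it. The letters GGGCGG were in 6 of the 9 (35.9% of the promoters so counted). TATAAA was in 2 of the 9, H3f3b and Hist1h2ba (13.6%), and TTTGAA in 2 of the 9, Cenpa and H2afv (17.8%). For TTTGAA the share of the 9, 22.2%, was close to that background, and nothing is read from it. All were counted on either strand. H2afx was not matched. The genes with 4 CCAAT matches spanned nearly the whole range of levels, from H3f3b at 581 FPKM to Hist1h2ba at 1.39 FPKM.

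Both testis variants were near the lower end of detection. Hist1h2ba, a gene of 1 exon at chr13:24025637-24026025 on the minus strand, had 1.47, 1.59, 1.47 and 1.03 FPKM, with a mean of 1.39 ± 0.246 (SD, n = 4). Single libraries ranged from 0.54 to 2.13 FPKM, and ranges of the sample numbers overlapped. By the estimated depth this was about 2.62 to 9.89 fragments per library. Hist1h1t, of 1 exon at chr13:23787680-23788588 on the plus strand, had 0.117, 0.0467, 0.157 and 0.210 FPKM, with a mean of 0.133 ± 0.0688 (SD, n = 4), and 4 of its 12 libraries were at 0. About 19.5 fragments were estimated over all 12 libraries, at most 5.71 in 1 library, and no difference between sample numbers passed the test. Without library number 2 of each sample number its range was 1.945 in place of 0.94 on the log2 scale, and 1 of 6 pairwise contrasts passed (F-test adjusted p = 0.105). Hist1h2ba was the higher of them in all 4 sample numbers, by 2.72 ± 0.69 on the log2(FPKM + 0.1) scale (SD, n = 4, exact permutation p = 0.125, the smallest possible).

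A further list of histone variants, transition proteins and protamines was also below the top quartile. Of its 19 genes, 11 were in the table and 6 had at least 0.1 FPKM. Of these 6, 2 differed between sample numbers, Tnp1 and Prm1, beside 58.2% of all genes tested. H2afj was highest at 8.85 ± 0.592 FPKM (SD, n = 4), and Tnp1, a transition protein gene, was next at 0.960 ± 0.590 FPKM. Hist1h2aa, which codes for the partner of TH2B, had 0.416 ± 0.0465 FPKM. H2afb1, 1700024P04Rik and Prm2 were listed at 0 in every library, and H2afy3 and Prm3 were below 0.1 FPKM. Prm1 had the largest range, 1.94 on the log2 scale, from 0.0567 FPKM in 186wt and 456wt to 0.440 FPKM in 444wt. Its mean was 0.1625 FPKM and 5 of its 12 libraries were at 0, so its range and call lie near the lower end of detection.

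Linker histone genes other than Hist1h1t spanned a wide range. The replacement linker gene H1f0 had 49.4 ± 11.8 FPKM and H1fx 46.8 ± 10.7 FPKM (SD, n = 4), both in the top quartile, and both were lower in 186wt and 343wt than in 444wt and 456wt. Of the 10 linker genes other than Hist1h1t, 7 had at least 0.1 FPKM and 4 of these differed between sample numbers, beside 58.2% of all genes tested. Hist1h1c had the largest range, 1.21 on the log2 scale, between 3.07 FPKM (343wt) and 7.19 FPKM (456wt). H1fnt and Hils1, the spermatid linker genes, and Hist1h1d were below 0.1 FPKM. By mean level Hist1h1t, at 0.133 FPKM, lay above these and below the other 7. This order did not hold in each sample number, since in 456wt Hist1h1t (0.210 FPKM) was above Hist1h1e (0.173 FPKM) and H1foo (0.190 FPKM). It rests on about 19.5 fragments of Hist1h1t.

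Replication-dependent core histone genes were mostly far below the abundant variants. The 62 rows of these core genes had a median of 0.320 FPKM, 51 reached 0.1 FPKM and 0 were in the top quartile. Between sample numbers 14 of the 51 differed, against 58.2% of all genes tested, and the part of low levels in this was not tested. The highest were Hist2h2aa1 and Hist2h2aa2, near-identical copies both listed at 20.1 ± 6.41 FPKM (SD, n = 4), and Hist1h2bk had the largest range, 3.67 on the log2 scale (adjusted p = 0.0534). Those below 0.1 FPKM were Hist1h2ac, Hist1h2al, Hist1h2an, Hist1h2be, Hist1h2bh, Hist1h2bq, Hist1h3d, Hist1h3f, Hist2h2ab, Hist2h3b and Hist4h4. Over the 10 variants and the replication-dependent genes together, the 57 genes with the stem-loop motif had a median of 0.327 FPKM and the 18 without it a median of 1.41 FPKM. That order rests on the abundant variants: among those 65 genes alone it turned, with a median of 0.320 FPKM for the 54 with the motif and 0.189 FPKM for the 11 without it. H2afx was the highest of all genes with the motif, at 29.8 FPKM. The study's methods state that mRNA was taken from total RNA before library preparation, without saying how, and the part of RNA selection in these levels was not tested.

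**Figure D5:**
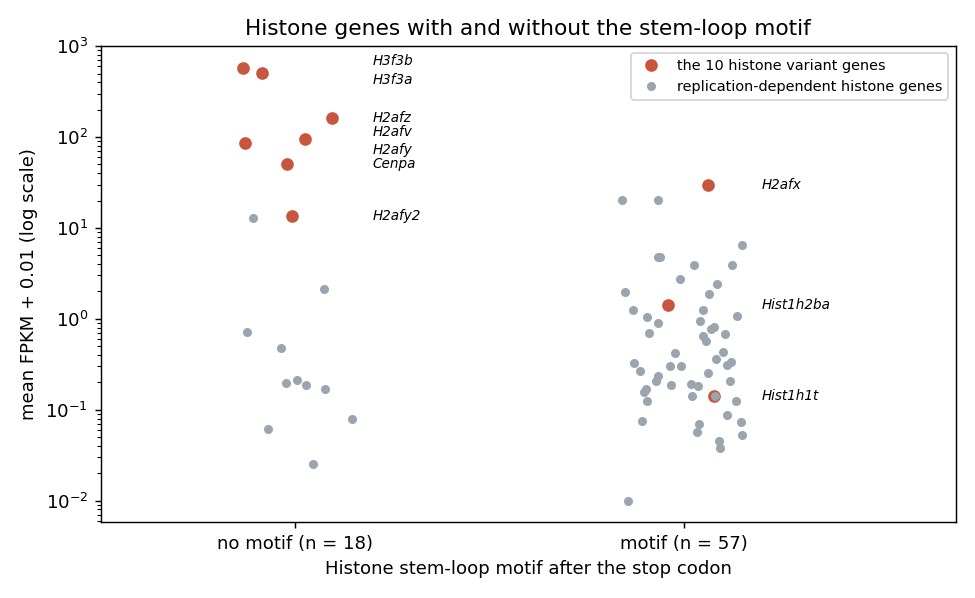
Mean FPKM + 0.01 (log scale) of histone genes without (n = 18) and with (n = 57) the stem-loop motif after the stop codon. The 10 variants are named, and replication-dependent genes, with Hist1h2aa among them, are in grey. H2afx is the highest gene with the motif (29.8 FPKM), and the other 7 variants, without it, range from 13.7 to 581 FPKM.

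In the order of mean levels, from H3f3b through H3f3a, H2afz, H2afv, H2afy, Cenpa, H2afx, H2afy2 and Hist1h2ba to Hist1h1t, each gene was above the next in all 4 sample numbers, except that H2afv was above H2afy in 2 of 4. H2afv was below H2afy in 186wt and 343wt and above it in 444wt and 456wt. Within each sample number the libraries of these genes did not overlap, for example 77.4 to 81.7 against 89.3 to 90.3 FPKM in 186wt. In 456wt they were 108 to 115 against 77.5 to 83.6 FPKM. Their difference thus had no common direction, and its mean was 0.15 ± 0.32 on the log2 scale (SD, n = 4, exact permutation p = 0.5). For each of the other 8 neighbouring pairs the exact permutation test gave p = 0.125, the smallest it allows with 4 sample numbers, and 0.141 after adjustment over 9 pairs. Taken over all sample numbers, the ranges of H3f3b and H3f3a overlapped, as did those of H2afv and H2afy, and those of the other 7 pairs did not.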

How the data were processed

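RNA-seq of 12 libraries of germ cells was used. Paired-end reads of 100 bp were aligned by the authors to NCBI build 37 transcripts (BowTie 0.12.9). Reads that had at least 2 mismatches were dropped by them, and RSEM 1.2.8 gave FPKM, with fragments taken as 280 ± 50 bp long. The deposited FPKM have 2 decimals. By the study's methods mRNA was taken from total RNA and copied with random primers. Strand and the way mRNA was selected are not given in the sources used here. No column lacked a sample (0 columns), and the files hold no counts. The number of fragments per library was estimated from the FPKM steps of short genes (median 14.7 M), so fragment numbers are estimates and cover counting error only.

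FPKM were averaged over the 3 libraries of a sample number. Differences between sample numbers were tested with limma 3.58.1 (R 4.3.3; lmFit, eBayes with trend, F-test and 6 contrasts) on log2(FPKM + 0.1), a scale that understates changes of low genes, for genes averaging 0.1 FPKM or more, with Benjamini-Hochberg adjustment over all genes. The script was tested on simulated data. Paralogs and neighbours in the order of levels were compared by exact sign-flip permutation tests (Python 3.11.15). The 10 genes, the lists of related and marker genes, and the tests were chosen with earlier results of these data known. From each list of related genes the 2 highest, the gene with the largest range and, where lists had any, those below 0.1 FPKM were to be named. Some genes covered by that rule are not reported here. Hira, Hjurp, Cenpb, Hist1h2aa, Sycp3 and the other marker genes named in the text were chosen after their values were seen. Alternatives were other pseudocounts, filters and scalings, a replicate block, and leaving out each sample number or library number.

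Sequences were read from NCBI build 37 with its annotation and, for promoters, from RefSeq (GRCm38.p6), where 9 of the 10 genes matched by symbol or synonym.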

Additional observations from a re-analysis of the deposited data

Results flagged for a closer look

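Of 13 values examined over the 4 sample numbers (10 gene levels and 3 paralog ratios), 1 stood apart. H2afz had 157.1 FPKM in 456wt, below the other 3 sample numbers, which lay between 163 and 164 FPKM, and the gap took 0.839 of the whole range, above Dixon's critical value for 4 samples. Chance sets apart about 1 value in 20, or 0.65 of 13. The 3 libraries of 456wt had 161, 162 and 148 FPKM, so that 1 library lay below all the others.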

How the results depend on the processing

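Of 302 values recomputed under the alternatives for 27 results, 299 were classed as the same. Among these, adjusted p-values kept their side of the threshold. Levels and ratios moved by less than the spread between sample numbers, and ratios kept their direction. Counts and percentages had only to stay within a set fold of the reported value, so they could shift to some extent. The 3 others were adjusted p-values of single genes: H2afz passed when libraries were rescaled by the median ratio (0.0222), H2afy2 did not pass without 186wt (0.121), and H2afx did not pass without 343wt (0.495). The number of histone variants that differed between sample numbers was 7 in the reported test, 8 under median-ratio scaling and 6 to 7 when a sample number or a library number was left out. Of pairs of gene and contrast, 50% passed in the reported test and 43.3% to 57.4% under the alternatives. The 3 libraries of a sample number carry numbers that do not pair libraries across sample numbers, since deviations of same-numbered libraries correlated at -0.041 to 0.030. With the library number as a replicate block, 7 of the 10 genes and 48.3% of pairs passed, and no gene changed its call. Over genes at 1 FPKM or more, rescaling by the median ratio shifted single libraries by a median of -0.04 to 0.06 on the log2 scale. Rescaling to a common sum shifted them by -0.012 to 0.010. With a minimum of 1 FPKM for an expressed gene, 6 in place of 7 genes were in the top quartile.

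Depth limits Hist1h1t and Hist1h2ba, whose differences rest on a few fragments. With 4 sample numbers, the exact tests cannot pass 0.05. The copies that share sequence with H2afz, H3f3a and Hist1h2ba could not be separated from FPKM alone. Adding the pseudogenes named after H3f3a to it left the log2 ratio of H3f3b to H3f3a at 0.20. Other genes that share its stretches, among them Gm17275, Gm10257 and H3f3c, were not added. The ratio under a different division of the shared reads was therefore not tested.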

Other observations

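Genes with the most similar course over the 4 sample numbers were found for the genes with the widest ranges, as the root mean square difference of centred log2 levels over 4 values. Among 14347 other genes at 1 FPKM or more, those nearest to H2afv were 2700081O15Rik (0.0072 on the log2 scale), the calcium-dependent kinase gene Camk2b (0.0083) and Dtd1 (0.0096). For Hist1h2ba they were Gm9392 (0.026), AC191865.2 (0.033) and Rgs11, a regulator of G-protein signalling (0.037). For Hist1h1t, among 14348 genes, they were the potassium channel gene Kcng4 (0.025), Svil (0.026) and the laminin gene Lamc3 (0.031), which had 3.83, 15.1 and 113 FPKM in 456wt while Hist1h1t itself rested on about 19.5 fragments. Cenpa lay outside that choice and was examined after its values were seen. Its nearest gene was Mcm3, a subunit of the replicative helicase and one of the 10 S phase genes, with 58.5, 63.2, 83.0 and 82.1 FPKM (0.0070). With 4 values per gene, close matches occur among so many genes, and no function is read from them.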
